A study of Rattus norvegicus with 12 samples.

Results

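The genes described here are those whose response to Slc39a2 knockdown differed with phenylephrine (PE), an α1-adrenergic agonist used to induce hypertrophy in cultured cardiomyocytes. RNA-seq was performed in neonatal rat ventricular myocytes (NRVMs) from Sprague-Dawley rats, in 4 groups of 3 biological replicates each, whose litters are not given. The siNeg group received a control siRNA and no PE. The siNeg PE group received the control siRNA and PE, the siSlc39a2 group an siRNA against Slc39a2 without PE, and the siSlc39a2 PE group both. PE was added 12 h after transfection and left for 36 h per the labels, while the culture methods of the study give a longer treatment. A single siRNA sequence was used against Slc39a2, so effects of that sequence on other genes cannot be told apart from effects of losing Slc39a2. All 12 samples entered a single fit, and the interaction was the log2 fold change of siSlc39a2 PE over siNeg PE less that of siSlc39a2 over siNeg. Of 18483 genes in the table, 13967 passed the filter on low counts and were tested. The interaction was called at an adjusted p below 0.05 in 504 genes, 3.61% of those tested.

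SLC39A2 is a transporter of the ZIP family that carries zinc into the cytoplasm. PE acts through Gq-coupled receptors and drives cardiomyocyte growth with re-expression of fetal genes and remodelling of the actin cytoskeleton. Serum response factor (SRF) activates many cytoskeletal genes when actin polymerises and binds a sequence called the CArG box. Interferons activate antiviral genes through factors that bind the interferon-stimulated response element (ISRE).

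Total expected counts were between 24065539 and 28603853 per sample. Replicates of the same group were not copies, since their counts differed with a chi-square per degree of freedom of 4.69 to 34.1. Slc39a2 (NCBI gene 305846) had 1.97, 1.89 and 2.32 CPM in siNeg, 3.5, 6.96 and 6.68 in siNeg PE, 0.726, 0.373 and 0.078 in siSlc39a2, and 1.16, 0.862 and 1.38 in siSlc39a2 PE, where CPM are counts scaled to a common library size by TMM. Its level was lower in every siSlc39a2 sample than in every sample of the matching control, without and with PE. No difference with PE in the size of the knockdown was detected (interaction 0.02, adjusted p = 0.992). The knockdown effect was -2.35 without PE (standard error 0.46) and -2.33 with PE (standard error 0.38), on counts as low as 2. Cardiomyocyte markers summed to 18600 to 27949 FPKM per sample, where FPKM are fragments scaled by gene length and library size. Fibroblast markers summed to 759 to 3485 FPKM, so the cultures were not of cardiomyocytes alone. With bulk RNA, fewer cells of a type and less RNA per cell cannot be told apart.

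The 504 genes fell into 3 classes by the direction and size of the knockdown effect. In the reversal class the effect had opposite signs without and with PE, each at an adjusted p below 0.05, and this held for 52 genes. In the dampening class the effect without PE passed and was no smaller in size than the effect with PE, which held for 198 genes. In the synergy class the effect with PE passed and was the larger, which held for 254 genes. These classes rest on the knockdown calls, which were frequent over all genes, at 49.2% without PE and 57.3% with PE. The interaction was above 0, here called higher, in 241 genes (1.73%) and below 0, here called lower, in 263 (1.88%). It exceeded 1 on the log2 scale in 63 genes upwards (0.451% of the genes tested) and 75 downwards (0.537%), together 0.988%. With library size as the scaling instead of TMM, the median interaction over all genes moved from 0.0262 to -0.107, and 150 genes were higher and 736 lower. All 504 genes kept their sign under that scaling. An unadjusted p below 0.05 was found for 2235 genes. Without the 4 samples labelled replicate 2, 17 genes were called. All 504 kept their sign there too. They were chosen in a fit that held the same samples, so kept signs are not support for the calls. With the replicate number added to the fit as a block, 1053 genes were called. Among fits without a single sample, the total was 537, 269 and 351 without siNeg 1, 2 and 3. It was 302, 267 and 479 without siNeg PE 1, 2 and 3. Without siSlc39a2 1, 2 and 3 it was 255, 275 and 525, and without siSlc39a2 PE 1, 2 and 3 it was 452, 281 and 437.

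In a table of expected counts, a fraction arises where a read that fits several genes is divided among them. Of the 504 genes, 383 had whole counts in every sample, 4.03% of the 9501 whole-count genes tested. The other 121 had fractional counts, 2.71% of 4466, and their values are uncertain. Reversal held 39 whole-count and 13 fractional genes, dampening 144 and 54, and synergy 200 and 54. Genes with fractional counts are marked as such below. The median size of the interaction was 0.93 in reversal, 0.72 in dampening and 0.72 in synergy, against 0.17 over all genes tested. Among the called genes, 2 (Ampd1 and Foxf1) had a group with at most 3 counts in every sample, so no fold is given for them.

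**Figure D1:**
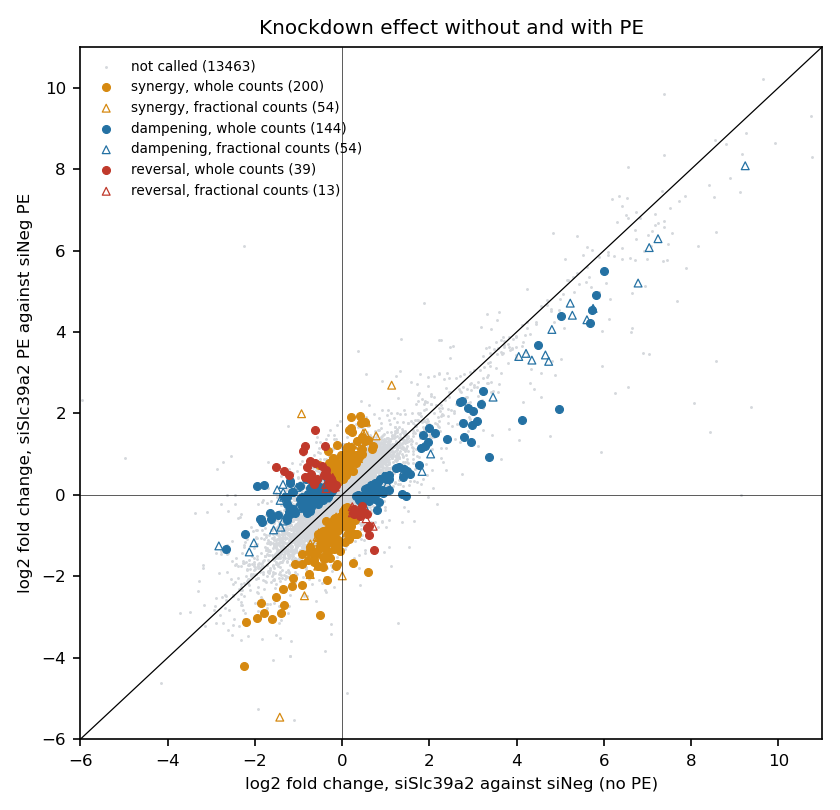
Knockdown effect with PE (y axis) against that without PE (x axis), both as log2 fold changes, for the 13967 genes tested. Reversal genes lie in the upper left and lower right parts, dampening genes between the diagonal line of equal effects and the x axis or just across it, and synergy genes on the far side of the diagonal. Open triangles have fractional counts, and 15 genes, of which 1 (Ampd1) was called, lie outside the axes.

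In the reversal class, 36 genes were lower after knockdown without PE and higher with PE, and 16 went the opposite way. The former group included secreted factors of matrix and growth signalling. Ctgf (NCBI gene 64032), also known as Ccn2, encodes a matricellular protein induced by mechanical load and TGF-β. It had 301, 334 and 353 CPM in siNeg, 146, 156 and 218 in siNeg PE, 203, 209.7 and 233 in siSlc39a2, and 535, 497 and 548 in siSlc39a2 PE. All siSlc39a2 PE samples lay above every other sample, while the siSlc39a2 samples lay below siNeg. The knockdown changed Ctgf by -0.61 without PE and 1.60 with PE on the log2 scale (interaction 2.22, standard error 0.18, adjusted p = 3.4e-05). Tgfb3 (NCBI gene 25717), a TGF-β ligand, had 162, 174 and 189.7 CPM in siNeg, 82.1, 86.2 and 94.7 in siNeg PE, 95.1, 96.2 and 101 in siSlc39a2, and 203, 197 and 203 in siSlc39a2 PE. Knockdown or PE alone lowered Tgfb3 with no overlap with siNeg, and the samples with both lay above siNeg (interaction 2.04, standard error 0.10, adjusted p = 5.2e-07). Cyr61, or Ccn1, is a matricellular relative of Ctgf. It had 142, 145 and 152 CPM in siNeg, 78.4, 90.3 and 101 in siNeg PE, 95.4, 92.7 and 96.6 in siSlc39a2, and 162, 145 and 154 in siSlc39a2 PE. Again either treatment alone gave lower values than siNeg, but here the samples with both overlapped siNeg (interaction 1.40, standard error 0.12, adjusted p = 3.97e-05). Hbegf, an EGF-family growth factor, had 18.2, 20.5 and 20.5 CPM in siNeg, 20.8, 21 and 21.9 in siNeg PE, 12.7, 11.5 and 11.1 in siSlc39a2, and 26.5, 28.8 and 28.5 in siSlc39a2 PE. Its siSlc39a2 samples were the lowest and its siSlc39a2 PE samples the highest (interaction 1.14, standard error 0.11, adjusted p = 0.000139).

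Further genes of the same direction act in vessels and bone. Ptgis, which encodes prostacyclin synthase, had 46.7, 50.5 and 50.2 CPM in siNeg, 73.4, 96 and 106 in siNeg PE, 19.3, 18.9 and 20.7 in siSlc39a2, and 150, 138 and 124 in siSlc39a2 PE. None of the 4 groups overlapped, and the order was siSlc39a2, siNeg, siNeg PE and siSlc39a2 PE (interaction 1.91, standard error 0.17, adjusted p = 5.36e-05). Tnfrsf11b encodes osteoprotegerin, a decoy receptor. It had 21.4, 23.7 and 24.9 CPM in siNeg, 8.44, 9.78 and 12.7 in siNeg PE, 11.7, 10.8 and 15 in siSlc39a2, and 18.1, 19.1 and 28.5 in siSlc39a2 PE. Here the siNeg PE and siSlc39a2 samples overlapped, as did the siNeg and siSlc39a2 PE samples (interaction 1.99, standard error 0.27, adjusted p = 0.00117). Flt1, a VEGF receptor, changed by -0.85 without PE and 0.44 with PE (interaction 1.29, standard error 0.21, adjusted p = 0.00385). Bean1 stayed low throughout, at 4.54, 4.89 and 5.08 CPM in siNeg, 5.64, 7.49 and 7.34 in siNeg PE, 2.01, 1.32 and 1.72 in siSlc39a2, and 12.1, 10.2 and 10.5 in siSlc39a2 PE, with the groups in the order seen for Ptgis (interaction 2.20, standard error 0.23, adjusted p = 0.000158).

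Of the reversal genes that were higher after knockdown alone and lower with PE, Stc1 and Penk encode secreted proteins, the glycoprotein stanniocalcin 1 and the opioid precursor proenkephalin. Stc1 (NCBI gene 81801) had 14.1, 18 and 19.8 CPM in siNeg, 141, 141 and 140.4 in siNeg PE, 27.2, 25.9 and 26.9 in siSlc39a2, and 58.4, 70.1 and 85.4 in siSlc39a2 PE. Penk (NCBI gene 29237) had 41.7, 38.2 and 39.4 CPM in siNeg, 197, 184 and 194 in siNeg PE, 62.7, 61.3 and 54.2 in siSlc39a2, and 109.7, 116 and 99.8 in siSlc39a2 PE. In both genes the 4 groups did not overlap, and PE raised the level in siNeg cells more than in siSlc39a2 cells. The log2 PE response of Stc1 was 3.03 with siNeg and 1.42 with siSlc39a2 (interaction -1.61, standard error 0.18, adjusted p = 0.000438). For Penk it was 2.27 and 0.87 (interaction -1.40, standard error 0.11, adjusted p = 2.13e-05). Htr3a, a subunit of the serotonin-gated channel, had 1.38, 1.14 and 1.34 CPM in siNeg, 4.35, 3.8 and 3.78 in siNeg PE, 2.63, 2.37 and 1.33 in siSlc39a2, and 1.19, 1.55 and 1.89 in siSlc39a2 PE. Only its siNeg PE samples stood apart from the rest, which overlapped (interaction -2.08, standard error 0.35, adjusted p = 0.00541). Chac1, an enzyme that degrades glutathione, had 41.7, 45.1 and 45.4 CPM in siNeg, 45.5, 41.9 and 37.8 in siNeg PE, 66.9, 63.2 and 55.6 in siSlc39a2, and 34.9, 31.1 and 28.2 in siSlc39a2 PE. Its siSlc39a2 samples were the highest and its siSlc39a2 PE samples the lowest (interaction -0.90, standard error 0.14, adjusted p = 0.0033). Togaram2 (interaction -1.37) and the uncharacterised LOC102550584 (interaction -1.04) were the other large whole-count members, and the call of LOC102550584 held in 1 of 15 fits with samples left out. Myom3, a sarcomeric M-band protein with fractional counts, had 18.3, 17.7 and 16 CPM in siNeg, 6.96, 6.26 and 5.8 in siNeg PE, 28.2, 29.1 and 27.8 in siSlc39a2, and 3.21, 4.42 and 3.49 in siSlc39a2 PE, again with no overlap between groups (interaction -1.48, standard error 0.16, adjusted p = 0.000282).

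**Figure D2:**
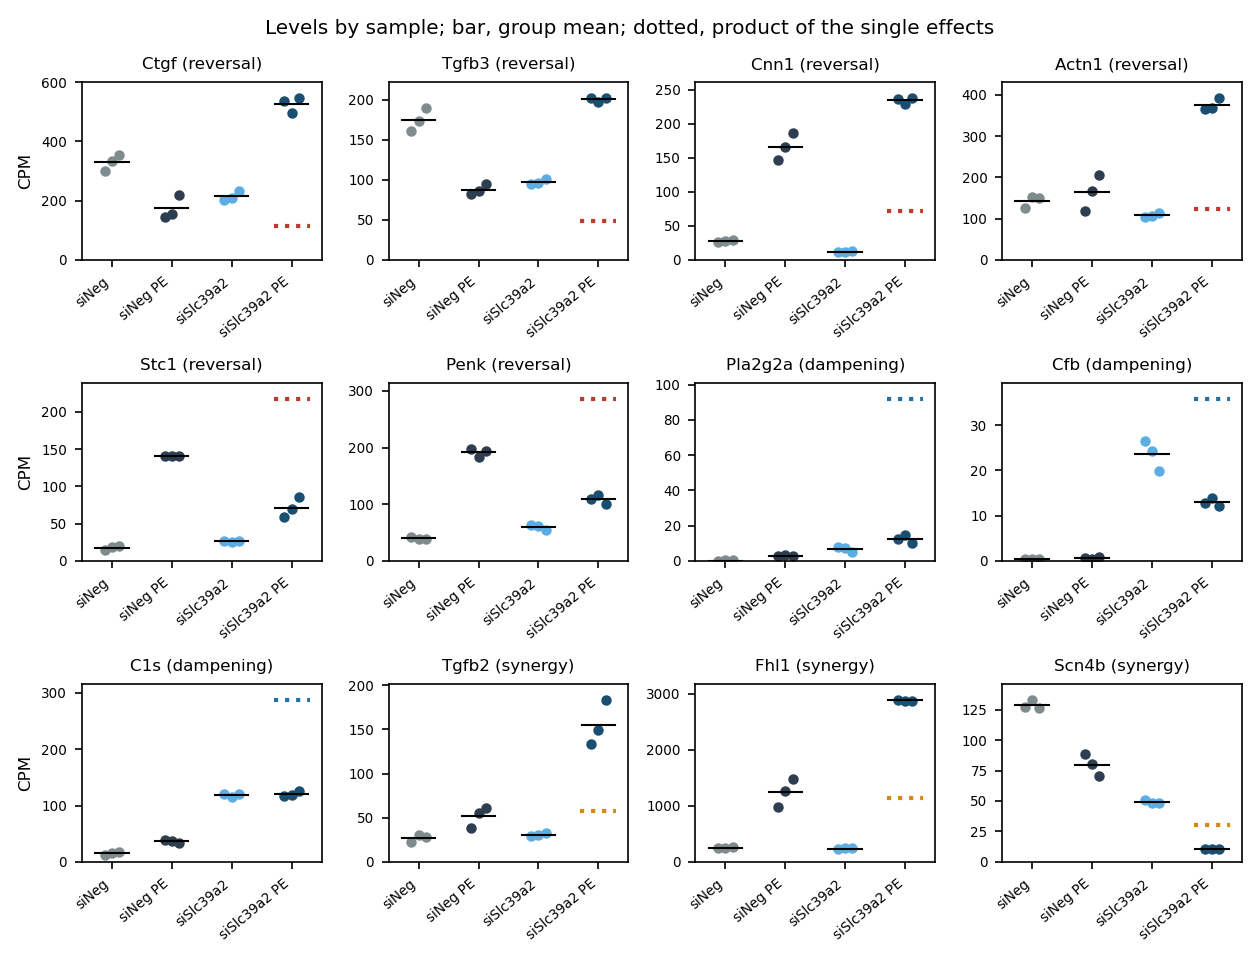
CPM (y axis, from 0) of 12 whole-count genes in every sample of the 4 groups. Black bars are group means, and the dotted line over siSlc39a2 PE is the level at which the knockdown and PE effects would multiply without interaction. The siSlc39a2 PE samples of Ctgf (497 to 548 CPM), Tgfb3, Cnn1, Actn1, Tgfb2 and Fhl1 lie above that line, and those of Stc1, Penk, Pla2g2a, Cfb, C1s and Scn4b below it.

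Many of the called genes encode proteins of the actin cytoskeleton. A list of 80 such genes was written after these values were seen, so its count is not independent evidence. Of the 76 tested, 37 were called higher and 1 (Abra) lower, or 50% of the list against 3.61% of all genes. The called members were 7 reversal, 19 dampening and 12 synergy genes, of which 27 had whole counts and 11 fractional counts. The median interaction of the list was 0.46 against 0.03 over all genes, and 69 of 76 members were above 0. The median knockdown effect went from -0.35 in untreated cells to 0.05 under PE. Cnn1 (calponin 1) and Actn1 (α-actinin 1), which bind actin filaments, showed the largest interactions. Cnn1 (NCBI gene 65204) had 27, 27.6 and 29.3 CPM in siNeg, 147, 165 and 187 in siNeg PE, 12, 11.7 and 12.3 in siSlc39a2, and 236, 229 and 238 in siSlc39a2 PE. Its 4 groups were separate, with the lowest level after knockdown alone and the highest after knockdown with PE (interaction 1.71, standard error 0.12, adjusted p = 1.2e-05). Actn1 (NCBI gene 81634) had 126, 152 and 151 CPM in siNeg, 118, 167 and 206 in siNeg PE, 104, 106 and 114 in siSlc39a2, and 366, 367 and 393 in siSlc39a2 PE. PE alone left Actn1 overlapping siNeg, while the siSlc39a2 PE samples lay above every other sample (interaction 1.60, standard error 0.21, adjusted p = 0.00115). Tpm2, or β-tropomyosin, had 212, 208 and 196 CPM in siNeg, 210, 239 and 250 in siNeg PE, 155, 167 and 156 in siSlc39a2, and 365, 369 and 337 in siSlc39a2 PE. Knockdown lowered it without PE and raised it with PE (interaction 0.98, standard error 0.10, adjusted p = 0.000158).

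Other members showed a knockdown effect without PE that was smaller in size with PE. Tagln (transgelin), a smooth muscle actin-binding protein, had 679, 665 and 655 CPM in siNeg, 207, 236 and 274 in siNeg PE, 266, 272 and 272 in siSlc39a2, and 225, 225 and 242 in siSlc39a2 PE. Every treated sample lay below siNeg, and the values of siSlc39a2 and siSlc39a2 PE lay within the range of siNeg PE (interaction 1.25, standard error 0.12, adjusted p = 8.48e-05). Acta1 and Acta2, the skeletal and smooth muscle α-actins, have fractional counts. Acta1 had 731, 648 and 707 CPM in siNeg, 2271, 2830.2 and 2847 in siNeg PE, 250, 284 and 283 in siSlc39a2, and 2912, 2685 and 2707 in siSlc39a2 PE. The siSlc39a2 samples were the lowest, and the 2 PE groups overlapped (interaction 1.42, standard error 0.13, adjusted p = 6.88e-05). Acta2 had 1246, 1222 and 1286 CPM in siNeg, 822, 902 and 1061 in siNeg PE, 468, 470.1 and 462 in siSlc39a2, and 868, 786 and 879.6 in siSlc39a2 PE, with overlap of the 2 PE groups as well (interaction 1.29, standard error 0.12, adjusted p = 6.88e-05). Flna (filamin A), Lmod1, Pdlim7 and Cnn2 had interactions of 0.72, 0.87, 0.74 and 0.73 with the same pattern in sign, since the knockdown effect was negative without PE and nearer to 0 with PE. Srf itself had 267, 255 and 257 CPM in siNeg, 216, 206 and 199 in siNeg PE, 192, 196 and 187 in siSlc39a2, and 219, 205 and 204 in siSlc39a2 PE. It was lower in siSlc39a2 than in siNeg without overlap, and the PE groups overlapped (interaction 0.46, standard error 0.08, adjusted p = 0.00551).

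Among members of the synergy class, Fhl1, a LIM-domain protein of the sarcomere, had 244, 253 and 273 CPM in siNeg, 988, 1268 and 1476 in siNeg PE, 223, 241 and 245 in siSlc39a2, and 2896, 2874 and 2878 in siSlc39a2 PE. Without PE the groups overlapped, and with PE all siSlc39a2 samples exceeded all siNeg samples (interaction 1.33, standard error 0.16, adjusted p = 0.000558). Enah, which promotes actin filament elongation, had 81.8, 94.3 and 90.4 CPM in siNeg, 149.7, 187 and 219 in siNeg PE, 101, 103 and 107 in siSlc39a2, and 473, 509 and 624 in siSlc39a2 PE (interaction 1.31, standard error 0.18, adjusted p = 0.00134). Msn (moesin), which links actin to the membrane, had 368, 369.6 and 388 CPM in siNeg, 546, 581 and 652 in siNeg PE, 374, 372 and 379 in siSlc39a2, and 974, 1012 and 1048 in siSlc39a2 PE (interaction 0.77, standard error 0.09, adjusted p = 0.000613). In Enah and Msn the siSlc39a2 PE samples were the highest. Abra, an activator of SRF signalling, was the exception in direction, with knockdown effects of 1.07 without PE and 0.39 with PE (interaction -0.67, standard error 0.17, adjusted p = 0.0475). The siNeg PE samples were not uniform for these genes, nor for the called genes as a whole. Over all 241 genes called higher, the median log2 deviation from the group mean was -0.09, 0.01 and 0.08 in siNeg PE 1, 2 and 3. Over all 263 called lower it was 0.08, -0.01 and -0.07. Over the 37 members called higher, the median deviation from the group mean was -0.13, 0.00 and 0.11 on the log2 scale in siNeg PE 1, 2 and 3, and between -0.03 and 0.04 in the samples of the other groups. Without siNeg PE 2, 25 members were called, the lowest number with a single sample left out, and without all 4 replicate 2 samples 3 were called. Smooth muscle markers overlapped with this list. Of 9 tested, 4 were called higher (Cnn1, Tagln, Cspg4 and the fractional Acta2), against 1.73% of all genes. Of these, Cnn1, Tagln and Acta2 are also members of the actin list. An interaction above 0 was found for 8 of the 9, while Smtn, not called, was lowest in siSlc39a2 PE. The markers summed to 1724 to 1825 FPKM in siNeg, 1071 to 1380 in siNeg PE, 798 to 803 in siSlc39a2 and 1114 to 1211 in siSlc39a2 PE. Acta2 (878 to 947 FPKM) and Tagln (652 to 660) formed most of the siNeg sum, so it largely restates those genes. The part of this sum in the result was not tested. Of 11 fibroblast markers, 0 were called by edgeR, DESeq2 or limma, beside 3.61% of all genes by edgeR. An unadjusted p below 0.05 was found for 1 of the 11.

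**Figure D3:**
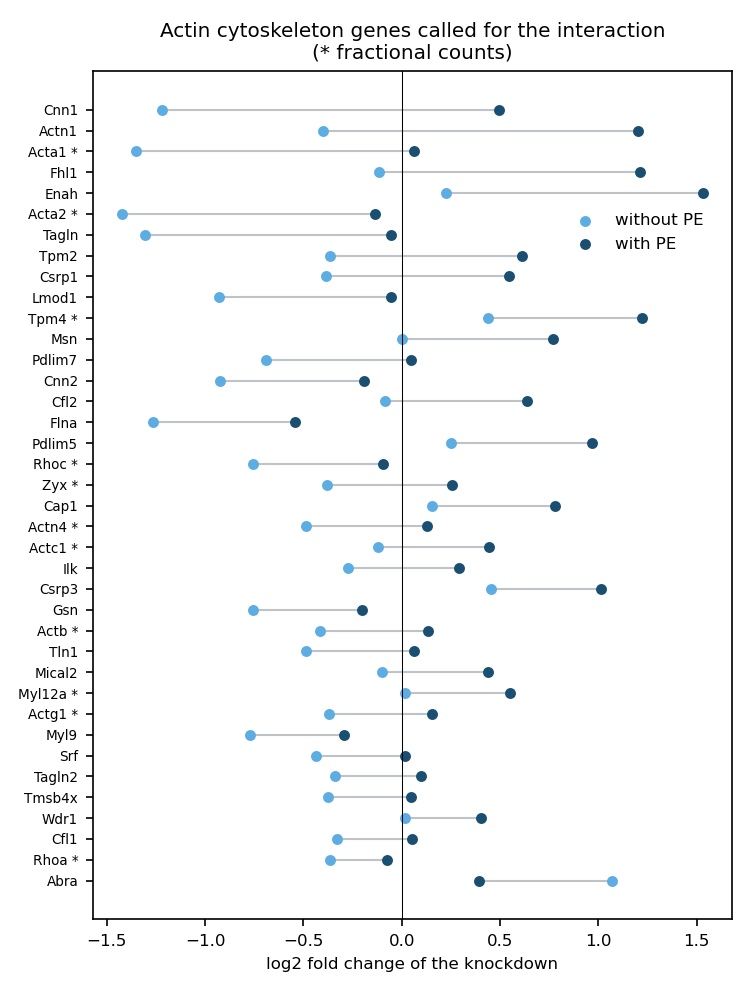
Knockdown effect (x axis, log2 fold change) without PE (light points) and with PE (dark points) for the 38 actin cytoskeleton genes called for the interaction, ordered by its size. The dark point lies to the right of the light point in 37 genes, and to its left in Abra.

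Promoters were searched for the CArG box, a motif chosen after the values were seen. Promoters are the 250 bases before and 50 after a gene's start in the RefSeq table of build GRCr8, which differs from the build Rnor_6.0 of the counts, and 389 of the 504 called genes matched an entry. The CArG box, on either strand, was found in 3.23% of 31 promoters of reversal genes called higher, 5.41% of 74 in dampening and 4.94% of 81 in synergy, against 1.31% of the promoters of tested genes and 1.64% of all promoters in the table. These shares rest on 1, 4 and 4 genes. Among genes called lower it was found in 0 of 11 promoters in reversal, 2.63% of 76 in dampening and 2.59% of 116 in synergy. Below are 4 of those promoters and that of Egr2, whose interaction was lower, to show the motif (capitals) in context, each 5′ to 3′ along the gene's strand. They lie at chr9:21923970-21924049 on the plus strand for Srf, chr7:10370349-10370408 on the minus strand for Cnn2, chrX:139638369-139638428 on the plus strand for Fhl1, chr10:106121007-106121066 on the minus strand for Actg1 and chr20:21054490-21054549 on the minus strand for Egr2.
Srf: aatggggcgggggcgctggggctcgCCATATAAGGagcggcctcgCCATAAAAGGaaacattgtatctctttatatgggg
Cnn2: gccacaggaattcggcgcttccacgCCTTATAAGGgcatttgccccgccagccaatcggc
Fhl1: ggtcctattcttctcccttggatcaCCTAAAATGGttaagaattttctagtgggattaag
Actg1: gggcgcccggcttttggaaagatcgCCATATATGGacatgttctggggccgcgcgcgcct
Egr2: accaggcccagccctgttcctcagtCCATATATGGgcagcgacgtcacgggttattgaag

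The Srf promoter held the motif at 2 places. Actg1 encodes cytoplasmic γ-actin, has fractional counts and had an interaction of 0.52, Cnn2 of 0.73 and Srf of 0.46. The motif also stood in promoters of genes that moved the opposite way, as in Egr2 (-1.02) and Dusp5 (-0.79). A match describes the sequence and was not tested as a site.

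Interferon-stimulated genes, which act against viruses, were frequent among the dampening genes called lower. The knockdown raised them steeply without PE and less with PE on the log2 scale. Of 69 effector genes tested, 14 were called lower and 0 higher, or 20.3% against 1.88% of all genes in that direction. All 14 were in the dampening class, which the definition gives wherever a large positive knockdown effect meets a smaller negative interaction. Of the 14, 6 had whole counts. The median knockdown effect over the list went from 4.81 in untreated cells to 4.40 under PE, and 14.5% of members had an interaction above 0 against 54.6% of all genes. The count of 14 was 7, 8 and 9 without siNeg PE 1, 2 and 3, 4 without siSlc39a2 PE 2, 5 without siSlc39a2 1, and 8 without siSlc39a2 2. Apol9a, an interferon-induced apolipoprotein L gene outside that list, had 21.9, 26.4 and 22.7 CPM in siNeg, 36.2, 33.4 and 36.1 in siNeg PE, 550.3, 549 and 507 in siSlc39a2, and 461, 466 and 433 in siSlc39a2 PE. The siSlc39a2 PE samples lay below the siSlc39a2 samples while siNeg PE lay above siNeg (interaction -0.81, standard error 0.10, adjusted p = 0.000915). Ube2l6 and Uba7 encode enzymes that attach the ubiquitin-like ISG15 to proteins. Ube2l6 had 26, 21.6 and 18.9 CPM in siNeg, 36.7, 33.8 and 31.3 in siNeg PE, 205, 207 and 189 in siSlc39a2, and 166, 158 and 156 in siSlc39a2 PE, with the same order of groups (interaction -0.93, standard error 0.14, adjusted p = 0.00249). Uba7 had 5.21, 6.14 and 5.2 CPM in siNeg, 10.4, 6.68 and 6.97 in siNeg PE, 323, 319 and 290.5 in siSlc39a2, and 250, 229 and 242 in siSlc39a2 PE (interaction -0.90, standard error 0.19, adjusted p = 0.0179). Oas1a, an antiviral nucleotide synthetase with fractional counts, had 3.24, 4.24 and 2.32 CPM in siNeg, 4.75, 3.73 and 4.4 in siNeg PE, 445, 445 and 405 in siSlc39a2, and 307, 279.8 and 280.4 in siSlc39a2 PE (interaction -0.97, standard error 0.20, adjusted p = 0.0189). In Oas1a the siNeg and siNeg PE samples overlapped, and the difference lay in the lower siSlc39a2 PE samples. Mx1, an antiviral GTPase with fractional counts, differed from these. It had 1.07, 1.02 and 1.34 CPM in siNeg, 1.69, 2.36 and 3.27 in siNeg PE, 696, 654 and 729 in siSlc39a2, and 589, 674 and 725 in siSlc39a2 PE. Its siSlc39a2 and siSlc39a2 PE samples overlapped, and siNeg PE lay above siNeg (interaction -1.16, standard error 0.26, adjusted p = 0.0311). The Mx1 call held in 5 of 8 alternatives, with values of -1.29 to -0.34, and in 7 of 15 fits with samples left out. Ifit1bl, also fractional, had the largest interaction of the called list members (-1.17). It had 0.948, 1.1 and 1.42 CPM in siNeg, 5.05, 6.01 and 6.53 in siNeg PE, 58, 57.5 and 71.9 in siSlc39a2, and 120, 137 and 165 in siSlc39a2 PE. PE thus raised Ifit1bl in both siNeg and siSlc39a2 cells, and its call held in 6 of 8 alternatives and 9 of 15 fits with samples left out. The fractional Slfn2 (-1.06) had the order of groups seen in Apol9a.

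Regulators of the pathway showed smaller values. Stat2, which joins the factor that binds the ISRE, had an interaction of -0.44 (adjusted p = 0.0209), and Dhx58, an RNA sensor of the RIG-I family, of -0.51 (adjusted p = 0.0344). The calls held in 7 and 4 of 15 fits with samples left out. Of the 8 interferon regulatory factors and 22 NFκB genes tested, 0 were called by edgeR with TMM, against 3.61% of all genes. In lists this short, 0 calls lie near that share. The list medians were -0.25 and -0.21. An unadjusted p below 0.05 was found in 3 and 5 of them, DESeq2 called 1 and 1, and limma 2 and 0. Of 27 tested genes that the study names, among them Nppa, Nppb, Myh7 and the Irf and Slc39a families, edgeR with TMM called 0. That too lies near the share of 3.61% over all genes. Of the 27, 8 had an unadjusted p below 0.05, while DESeq2 called 1 and limma on log2(FPKM + 1) 2. The smallest adjusted p of the 27 by edgeR was 0.0685, for Irf7 (interaction -0.63). Irf7 passed in 8 of 9 alternatives, edgeR with library size, without the filter, on whole-count genes alone and with a replicate block among them, with interactions of -0.76 to -0.64 over the 9, and in 3 of 15 fits with samples left out. MHC class I genes RT1-T24-3, RT1-S3 and RT1-N3 were called lower, all with fractional counts, with interactions of -1.58, -1.31 and -0.65, and the call of RT1-N3 held in 5 of 8 alternatives and 6 of 15 fits with samples left out. Of 28 chemokines and cytokines, 3 were called lower, against 1.88% of all genes, namely Cxcl11 (-0.99), Cxcl1 (-0.94) and the fractional Cx3cl1 (-1.02).

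The core of the ISRE, which is GAAA repeated after any 2 bases, on either strand, stood in 11.8% of 76 promoters of dampening genes called lower, or 9 genes, against 3% of tested genes and 3.77% of all promoters in the table. In the reversal class it was found in 0 of 31 promoters of genes called higher and 0 of 11 of genes called lower. The share was 1.35% of 74 in dampening genes called higher. In synergy it was 1.23% of 81 for genes called higher and 3.45% of 116 for those called lower. Over all 389 called genes with a promoter it was 3.86%. The promoters of 4 genes are shown to give the motif (capitals, overlapping copies joined) in genes described here, from GRCr8 and 5′ to 3′ along the gene's strand. They lie at chr12:41330400-41330465 on the plus strand for Oas1a, chr7:111028245-111028310 on the minus strand for Apol9a, chr1:205541768-205541827 on the minus strand for Ifitm3 and chr2:233910918-233910977 on the plus strand for Gbp5.
Oas1a: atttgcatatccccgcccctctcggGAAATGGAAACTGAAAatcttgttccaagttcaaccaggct
Apol9a: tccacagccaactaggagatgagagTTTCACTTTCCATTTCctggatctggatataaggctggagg
Ifitm3: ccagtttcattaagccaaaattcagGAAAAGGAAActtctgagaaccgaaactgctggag
Gbp5: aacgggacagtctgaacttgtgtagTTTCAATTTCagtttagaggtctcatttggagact

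Ifitm3, a membrane protein that blocks viral entry, had an interaction of -0.69, and Gbp5, a guanylate-binding protein, of -0.61. In Apol9a and Gbp5 the motif is on the opposite strand and reads as its reverse complement.

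Complement genes were the other immune group. Of 14 tested, 5 were called lower, against 1.88% of all genes, and 0 higher, with 4 in dampening and 1 in synergy, and 3 were called without siNeg 2 or without siNeg PE 1. C1s and C1r are the proteases of the first complement component. C1s (NCBI gene 192262) had 12.8, 15.2 and 16.9 CPM in siNeg, 39.6, 36.7 and 32.9 in siNeg PE, 121, 115 and 119.9 in siSlc39a2, and 116, 119 and 127 in siSlc39a2 PE. Its siSlc39a2 and siSlc39a2 PE samples overlapped, whereas siNeg PE lay above siNeg (interaction -1.26, standard error 0.13, adjusted p = 0.000213). C1r had 92.3, 99 and 97.3 CPM in siNeg, 127, 127 and 123 in siNeg PE, 344, 341 and 317 in siSlc39a2, and 271, 269 and 293 in siSlc39a2 PE, and its siSlc39a2 PE samples lay below siSlc39a2 (interaction -0.65, standard error 0.08, adjusted p = 0.000752). Cfb (complement factor B) had 0.474, 0.379 and 0.512 CPM in siNeg, 0.7, 0.492 and 0.88 in siNeg PE, 26.6, 24.4 and 19.9 in siSlc39a2, and 12.7, 13.8 and 12.2 in siSlc39a2 PE. Cfb was low in both siNeg groups, which overlapped, and the siSlc39a2 PE samples lay below siSlc39a2 (interaction -1.47, standard error 0.30, adjusted p = 0.0174). C4b, with fractional counts, changed by 4.66 without PE and 3.44 with PE. C3, the central component, belonged to the synergy class instead, with knockdown effects of -1.14 and -2.03 (interaction -0.90, standard error 0.23, adjusted p = 0.0492). Pla2g2a (NCBI gene 29692) encodes a secreted phospholipase A2 of inflammation. Its interaction was the largest among the dampening genes called lower with a mean log2 CPM above 1. It had 0.158, 0.227 and 0.236 CPM in siNeg, 2.54, 3.38 and 2.75 in siNeg PE, 7.81, 7.15 and 4.83 in siSlc39a2, and 12.6, 14.6 and 10.1 in siSlc39a2 PE. Each treatment alone raised it and both together gave the highest level, which was below the product of the single effects (interaction -2.86, standard error 0.38, adjusted p = 0.00115). Id4, an inhibitor of DNA-binding factors, had 1.42, 1.59 and 1.06 CPM in siNeg, 3.21, 3.38 and 3.19 in siNeg PE, 10.4, 9.55 and 11.9 in siSlc39a2, and 8.13, 7.55 and 8.22 in siSlc39a2 PE (interaction -1.67, standard error 0.20, adjusted p = 0.000624). Ass1 (argininosuccinate synthase) had an interaction of -1.37 that passed in 6 of 9 alternatives and in 3 of 15 fits with samples left out.

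Extracellular matrix genes were frequent among the dampening genes called higher. Of 95 tested, 15 were called higher, against 1.73% of all genes, and 1 (Tgfbi) lower. The classes were 13 dampening, 2 reversal (Ctgf and Cyr61) and 1 synergy, and the median interaction was 0.19. Over the list the median knockdown effect went from -1.17 in untreated cells to -0.74 under PE. Without siSlc39a2 1, 10 members were called. Ltbp2, a latent TGF-β binding protein of elastic fibres, had 159, 193 and 203 CPM in siNeg, 54.5, 78.3 and 87.9 in siNeg PE, 30.4, 26.8 and 30.1 in siSlc39a2, and 26.7, 26.1 and 34.3 in siSlc39a2 PE. Both siSlc39a2 groups lay below both siNeg groups and overlapped each other (interaction 1.33, standard error 0.23, adjusted p = 0.00587). Tnc (tenascin C) had 123, 177 and 189.8 CPM in siNeg, 69.9, 85.8 and 92.9 in siNeg PE, 67.8, 68.9 and 65.9 in siSlc39a2, and 67, 67.7 and 78.9 in siSlc39a2 PE (interaction 1.05, standard error 0.20, adjusted p = 0.012). Thbs1 (thrombospondin 1) had 384, 476 and 504 CPM in siNeg, 258, 283 and 352 in siNeg PE, 278, 258 and 279 in siSlc39a2, and 315, 316 and 374 in siSlc39a2 PE (interaction 0.91, standard error 0.17, adjusted p = 0.00993). For both genes the siNeg samples lay above every other sample. Cemip, which degrades hyaluronan, had an interaction of 1.30, and its call held in 6 of 15 fits with samples left out. Summed fibroblast markers differed in the same samples, from 2556 to 3485 FPKM in siNeg to 1843 to 2396 in siNeg PE. They summed to 1136 to 1242 in siSlc39a2 and 759 to 1065 in siSlc39a2 PE. Collagens, themselves matrix genes, formed the largest part of the sum, with Col1a1 alone at 1449 to 1995 FPKM in siNeg. Of the other markers, Dcn, Lum, Dpt, Thy1 and Postn were lower in siSlc39a2 than in siNeg without overlap. Tcf21 was higher, at 22.2 to 23.4 FPKM in siNeg and 30 to 33.4 in siSlc39a2, while Pdgfra and Ddr2 overlapped. The knockdown without PE was called in 49.2% of all genes tested, so such differences were common. The share of all genes without overlap was not counted. The part of these markers in the matrix result was not tested. Camk2b, a calcium/calmodulin kinase subunit, and St8sia2, a polysialyltransferase, were further dampening genes, with interactions of 1.27 and 2.17.

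In the synergy class, 105 genes were higher and 149 lower with PE. The knockdown without PE was not called in 163 of the 254, and in the other 91 it was called in the same direction. Tgfb2 (NCBI gene 81809), a TGF-β ligand, had 22.8, 30.5 and 28.6 CPM in siNeg, 38.1, 54.8 and 61.2 in siNeg PE, 29, 30 and 33.1 in siSlc39a2, and 134, 149 and 184 in siSlc39a2 PE. Without PE the 2 groups overlapped, and with PE the knockdown samples were all above the controls (interaction 1.43, standard error 0.24, adjusted p = 0.00466). Xirp2, an actin-binding protein of the intercalated disc, had 22.8, 24.4 and 21 CPM in siNeg, 29, 61.9 and 61.5 in siNeg PE, 32.7, 27.7 and 30 in siSlc39a2, and 132, 200.4 and 249 in siSlc39a2 PE. Its siNeg PE samples differed among themselves, and the call held in 5 of 15 fits with samples left out (interaction 1.53, standard error 0.37, adjusted p = 0.0395). Creb5, a transcription factor, had 3.87, 4.32 and 3.98 CPM in siNeg, 5.64, 7.28 and 8.29 in siNeg PE, 4.94, 4.64 and 4.37 in siSlc39a2, and 21.7, 22.1 and 22.8 in siSlc39a2 PE (interaction 1.45, standard error 0.18, adjusted p = 0.000828). The level of Creb5 in siSlc39a2 PE was above all other samples. Integrin subunits, receptors for matrix, were called higher in 3 of 18 cases, against 1.73% of all genes, with an interaction of 0.84 for Itga6 and, on fractional counts, 0.98 for Itgb1 and 0.64 for Itgb5, which was a reversal gene. The call of Itga6 held in 5 of 15 fits with samples left out, and that of Itgb1 in 7 of 15 and in 4 of 8 alternatives. Armcx1 had an interaction of 2.92 on fractional counts, with 5.81, 5.08 and 1.73 CPM in siNeg, 1.66, 1.79 and 3.89 in siNeg PE, 1.31, 1.63 and 3.74 in siSlc39a2, and 8.13, 10.2 and 10.8 in siSlc39a2 PE, and its call held in 6 of 15 fits with samples left out.

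Among synergy genes called lower were 4 cardiac ion channel genes. They were 4 of 31 tested, against 1.88% of all genes called lower, and 0 channels were called higher. Over the list the median interaction was -0.03, and 13 of 31 members were above 0. Scn4b (NCBI gene 315611), the β4 subunit of the sodium channel, had 127, 133 and 127 CPM in siNeg, 88.5, 80.4 and 70.3 in siNeg PE, 50.8, 48.5 and 48.1 in siSlc39a2, and 10.4, 10.6 and 10.8 in siSlc39a2 PE. The groups did not overlap, and the knockdown effect was -1.39 without PE and -2.91 with PE (interaction -1.52, standard error 0.11, adjusted p = 2.13e-05). Kcnd2, the pore of the transient outward potassium current, has fractional counts and an interaction of -1.61, with -1.74 to -0.31 over 8 alternatives, of which 7 passed. Abcc8 and Kcnj11 encode subunits of the ATP-sensitive potassium channel. Abcc8 had 82.7, 89.1 and 92.1 CPM in siNeg, 97.4, 90.5 and 88.9 in siNeg PE, 85.7, 83.2 and 74.2 in siSlc39a2, and 52.1, 49.1 and 47.3 in siSlc39a2 PE (interaction -0.78, standard error 0.10, adjusted p = 0.00115). Kcnj11 had 93.4, 84.4 and 91.7 CPM in siNeg, 58.7, 60.6 and 52 in siNeg PE, 83.8, 87.5 and 79.4 in siSlc39a2, and 39, 37.8 and 35.3 in siSlc39a2 PE (interaction -0.51, standard error 0.11, adjusted p = 0.0195). In both the siSlc39a2 PE samples were the lowest. Atp2a2, the calcium pump of the sarcoplasmic reticulum, had 7299.5, 7959 and 8644 CPM in siNeg, 7889, 6644 and 6619 in siNeg PE, 6578, 6345 and 6621 in siSlc39a2, and 4175, 4009 and 4031 in siSlc39a2 PE (interaction -0.50, standard error 0.11, adjusted p = 0.0273). The adrenergic receptors Adra1b, a receptor of PE, and Adrb1 had interactions of -0.68 and -0.72, and the call of Adra1b held in 5 of 15 fits with samples left out. Adrb1 had 60.3, 61.6 and 61.4 CPM in siNeg, 53.9, 49.3 and 46.9 in siNeg PE, 67.8, 61 and 65.7 in siSlc39a2, and 35.6, 30.8 and 30.5 in siSlc39a2 PE, so that its level was lowest in siSlc39a2 PE.

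Several genes that PE induced in siNeg cells showed little or no induction in siSlc39a2 cells. Egr2, an immediate early transcription factor, had 8.21, 7.43 and 6.3 CPM in siNeg, 18.5, 18.3 and 19.3 in siNeg PE, 7.64, 5.28 and 6.28 in siSlc39a2, and 8.43, 7.52 and 8.22 in siSlc39a2 PE. Dusp2, a MAP kinase phosphatase, had 1.5, 1.02 and 1.14 CPM in siNeg, 4.16, 3.76 and 3.74 in siNeg PE, 1.18, 1.12 and 1.05 in siSlc39a2, and 1.45, 1.31 and 0.8 in siSlc39a2 PE. Slco2a1, a prostaglandin transporter, had 22.6, 25.9 and 27.6 CPM in siNeg, 55.2, 59.6 and 61.9 in siNeg PE, 26.1, 23.8 and 19.1 in siSlc39a2, and 17, 19 and 16.7 in siSlc39a2 PE. In these 3 genes the siNeg PE samples lay above all others, and PE responses were 1.35, 1.67 and 1.22 with siNeg against 0.33, 0.09 and -0.39 with siSlc39a2. The interactions were -1.02 (adjusted p = 0.00924), -1.58 (adjusted p = 0.0174) and -1.61 (adjusted p = 0.000137). Of 27 immediate early genes, 5 were called lower (Egr3, Egr2, the fractional Fos, Junb and Arc) and 2 higher (Myc and Srf), against 1.88% and 1.73% of all genes, and 3 or 4 were called without siNeg 2, siNeg PE 1, siNeg PE 2, siSlc39a2 PE 2, siSlc39a2 1 or siSlc39a2 2. Reg3b, a secreted C-type lectin, had 51.5, 55.7 and 46 CPM in siNeg, 46.9, 35.2 and 35.7 in siNeg PE, 62.4, 62.7 and 55.9 in siSlc39a2, and 13.6, 13.5 and 9.82 in siSlc39a2 PE. It was lowest in siSlc39a2 PE (interaction -1.91, standard error 0.19, adjusted p = 0.00015). Piwil2, of the PIWI family of small RNA binding proteins, had 17.1, 17 and 18.8 CPM in siNeg, 8.99, 8.16 and 7.85 in siNeg PE, 13.4, 12.9 and 15.3 in siSlc39a2, and 2.01, 1.76 and 2.07 in siSlc39a2 PE, with 4 separate groups (interaction -1.75, standard error 0.15, adjusted p = 5.98e-05). Genes of the ATF4 amino acid response were called lower in 9 of 36 cases, against 1.88% of all genes, and higher in 0. They included Chac1, Cebpb (-0.69), Atf5 (-0.68), Trib3 (-0.68) and the fractional Atf4 (-0.41), and 4 or 5 were called without siNeg 2, siNeg 3, siNeg PE 1, siNeg PE 2, siSlc39a2 PE 2, siSlc39a2 1 or siSlc39a2 2.

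The counts of the next lists stand beside 1.73% of all genes called higher and 1.88% called lower. Of 48 sarcomere genes, 6 were called higher and 2 lower. Heat shock genes Hspb3, Hspb1 and Dnajb5 were called higher, 3 of 21. The call of Hspb3 held in 4 of 9 alternatives and 4 of 15 fits with samples left out, and that of Hspb1 in 5 of those 15. Growth factor genes had 7 higher and 1 lower of 43, and TGF-β and BMP genes 2 higher and 2 lower of 34. By edgeR, 0 genes were called among 45 of fatty acid oxidation, 82 of oxidative phosphorylation, 83 ribosomal proteins, 32 proteasome subunits, 55 of the cell cycle, 25 of cholesterol synthesis, 24 antioxidant genes and 23 of zinc transport. The median interactions of those lists were between -0.20 and 0.12, and an unadjusted p below 0.05 was found for 9, 3, 1, 2, 11, 1, 8 and 5 of their members. DESeq2 called 1 gene of fatty acid oxidation, 5 of the cell cycle and 3 antioxidant genes, and limma 4, 3 and 3 of these and 2 of oxidative phosphorylation. Of 11 macrophage and 5 mesothelial markers, 0 were called by any of the 3 tools, with 1 at an unadjusted p below 0.05 in each list. The lists were described by counts alone and not compared by a test.

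**Figure D4:**
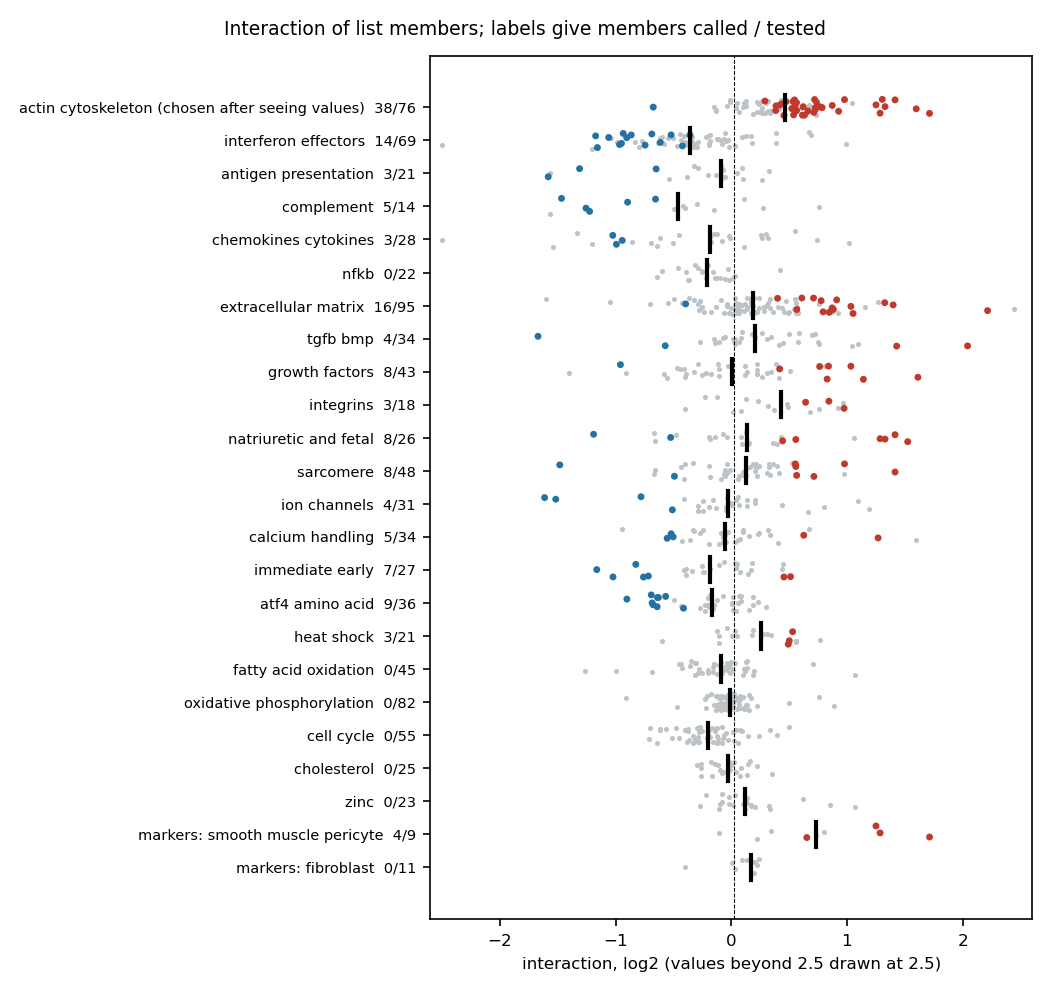
Interaction on the log2 scale (x axis) of each tested member of the gene lists named at the left. Coloured points were called higher (red) or lower (blue), short bars are list medians, and the dashed line is the median of all genes (0.03). Interferon, complement and ion channel calls lie below 0, and nearly all actin and matrix calls above 0.

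Across all 13967 genes the knockdown effects without and with PE, which share no samples, had a Pearson correlation of 0.83, and the PE responses with siNeg and siSlc39a2 had a correlation of 0.70. Genes are not independent replicates, so no test was made. Among 1366 genes (9.78% of those tested) changed by the knockdown without PE at an adjusted p below 0.05 and past 1 on the log2 scale, the median ratio of the effect with PE to that without was 0.87. Chosen instead by the effect with PE (1621 genes, 11.6%), the median ratio of the effect without PE to that with PE was 0.83, so that each choice gave a smaller value in the other setting. For the PE response the ratios were 0.90 among 922 genes (6.6%) chosen in siNeg cells and 0.66 among 1469 (10.5%) chosen in siSlc39a2 cells. Sorted by the PE response instead of the knockdown effect, 343 of the 504 genes had a larger PE response with siSlc39a2, 108 a smaller response and 52 a response of opposite sign, with 1 unsorted. The PE response passed an adjusted p of 0.05 in 337 of the 504 genes with siNeg and in 431 with siSlc39a2, beside 49.7% and 60% of all genes tested.

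**Figure D5:**
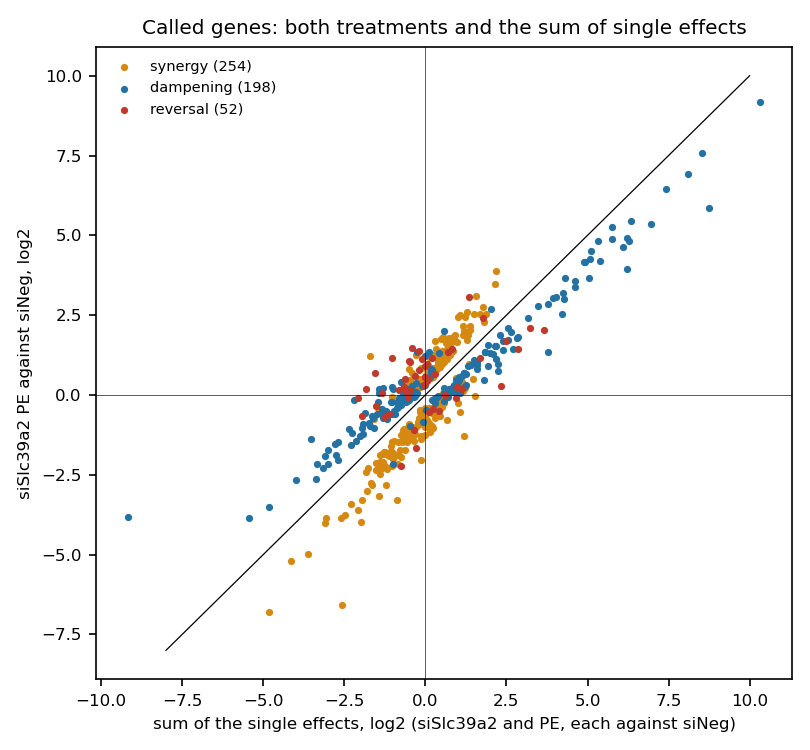
Log2 fold change of siSlc39a2 PE over siNeg (y axis) against the sum of the log2 effects of knockdown alone and PE alone (x axis) for the 504 called genes, coloured by class. Points on the line would have no interaction. Called genes lie off it by at least 0.28, and the dampening genes with the largest sums, interferon-stimulated genes among them, lie below it.

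The interaction is defined on the log2 scale, where effects that multiply leave no interaction. On the linear scale of mean CPM, the departure from additive effects had the same sign in 481 of the 504 genes. In the other 23 the interaction was lower on the log2 scale while the CPM departure was above 0. They included Scn4b, Ky, Asb10, Pla2g2a and Mx2. Asb10 had 12.7, 11.7 and 12.9 CPM in siNeg, 2.32, 2.25 and 1.69 in siNeg PE, 2.59, 2.88 and 2.3 in siSlc39a2, and 0.0746, 0.069 and 0.182 in siSlc39a2 PE, and its interaction of -1.95 changed sign on log2(FPKM + 1), to 0.67. The last genes inside the threshold were Ggt7 (interaction 1.01) and the fractional Mtmr11 (0.77), and the next outside were Lrrc59 (0.35) and Ptgs2 (1.51).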

How the data were processed

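RNA-seq of 12 NRVM samples was deposited by the authors as a table of expected counts per gene, with fractions where reads were shared between genes, and as FPKM per gene. The submitters' processing notes list HISAT, Bowtie2 and the build Rnor_6.0, and the counting program and annotation are not given in the sources used here. Expected counts were rounded to whole numbers, filtered by expression with edgeR's filterByExpr over the 4 groups, scaled by TMM (factors 0.927 to 1.07) and fitted with edgeR 4.0.16 in R 4.3.3. Each contrast was tested with the two-sided quasi-likelihood F-test on 8 residual degrees of freedom, with Benjamini-Hochberg adjustment over all 13967 genes. P-values measure the spread between these samples. Standard errors were the absolute log2 value divided by the square root of its F value. CPM per sample were computed with the TMM factors, and log2 fold changes come from the fit. A prior count of 2 was used for the log2 CPM from which correlations between samples were taken. A count was taken as whole within 1e-06. Of the 18483 genes, 12943 had whole counts throughout.

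The members and gene lists were chosen with earlier results of these data known. Named genes were Slc39a2, genes the study names, the 5 whole-count genes of the largest interaction in each class and direction with a mean log2 CPM above 1, the 2 such fractional genes of each class, the 3 called members of largest interaction in each list, and the 2 genes on either side of the threshold. Other genes were chosen after their values were seen: Abra, Actg1, Actn1, Ampd1, Apol9a, Arc, Atf4, Atp2a2, C1r, C3, Cnn2, Cspg4, Enah, Flna, Foxf1, Gbp5, Ifitm3, Junb, Kcnj11, Ky, Lmod1, Msn, Mx2, Myc, Oas1a, Pdlim7, Srf, Tgfbi, Thbs1, Tnc, Trib3, Uba7 and Ube2l6. The actin list and the CArG search were added at that stage too. Of 1372 list entries, 13 were not matched to the table. Alternatives were RLE factors, library size, DESeq2 1.42.0, no filter, whole-count genes alone, limma 3.58.1 on log2 values with pseudocounts of 1 and 0.1, a replicate block, and samples left out. Scripts were tested on simulated data. Promoters came from RefSeq GRCr8.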

Additional observations from a re-analysis of the deposited data

Results flagged for a closer look

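The interaction is itself a test of whether the knockdown effect differs with PE, and it passed in 241 genes upwards and 263 downwards by edgeR's quasi-likelihood test. Among whole-count genes, the largest differences with opposite directions of the knockdown effect were found for Ctgf (interaction 2.22), Bean1 (2.20), Tgfb3 (2.04), Tnfrsf11b (1.99) and Ptgis (1.91), which were lower after knockdown alone and higher with PE. Htr3a (-2.08), Stc1 (-1.61), Penk (-1.40), Togaram2 (-1.37) and LOC102550584 (-1.04) went the opposite way. Samples far from the others of their group were not sought, since groups of 3 are too small for that test.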

How the results depend on the processing

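All 504 called genes kept their sign in every alternative fitted with edgeR or DESeq2 to the whole table, including those with samples left out, as did the 383 that were tested among whole-count genes alone, and 499, 503 and 503 kept it with limma on log2(FPKM + 1), on the same with a pseudocount of 0.1, and on log2(count + 1). The 504 genes were chosen in a fit of the same samples, so a kept sign is not support for the calls. Of 100 called genes chosen by the naming rule, 76 stayed past the adjusted p in every alternative that tested them (9 for whole-count and 8 for fractional genes). In all 15 fits with samples left out, 15 of the 100 did. Library size alone gave 150 genes higher, 736 lower (140 of them past 1 on the log2 scale), 95 in reversal, 334 in dampening and 456 in synergy, with 413 of the 504 genes shared. Its median interaction over all genes was -0.107, against 0.0262 with TMM. DESeq2 gave 448 lower, 312 in dampening and 437 in synergy, with 500 shared. Limma on log2(FPKM + 1) gave 469 lower, 305 in dampening, 429 in synergy, and 37 higher and 48 lower past 1, with 413 shared. The cause of the following changes was not tested. The sign turned for Asb10 (0.67) and the fractional Ifit1bl (0.00504) on log2(FPKM + 1), and for Nppa on log2(count + 1) (0.0305). It also turned for the interaction of Slc39a2 with RLE factors (-0.00304), library size (-0.11), no filter (-0.0225), whole-count genes alone (-0.0257) and log2(FPKM + 1) (-0.43). Neither Nppa nor Slc39a2 was called in any of the 9 alternatives.

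The replicate number used as a replicate block gave 536 genes higher, 517 lower, 102 in reversal, 375 in dampening and 576 in synergy, with all 504 genes shared. Same-numbered samples correlated above 0.1 in their deviations in 8 of 18 pairs (range -0.0904 to 0.32), and more than differently numbered ones in 14. Samples of the same number may thus share part of their variation. The labels do not say what the number stands for, and the main fit assumed no pairing.

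With 1 sample or 1 replicate number left out, 10 to 267 genes were called higher and 7 to 344 lower, with 10 to 86 and 7 to 83 past 1. Reversal held 10 to 59 genes, dampening 2 to 215 and synergy 5 to 277. The lowest values came without replicate 2. The interaction of Nppa ran from -0.28 to 0.0583, of the fractional Myh7 from -0.0918 to 0.0075 and of Slc39a2 from -0.56 to 0.79. None of them was called in these fits. With limma on log2(count + 1), the interaction of Myh7 was -0.51 and passed (adjusted p = 0.0379), which was the case in 1 of its 8 alternatives, and the interaction of Irf7 passed in 8 of 9. The interferon count of 14 was 24 with DESeq2 and with library size, 8 on log2(FPKM + 0.1) and 6 on log2(count + 1). The matrix count of 16 was 9 on log2(count + 1) and 29 with the block. The actin count of 38 was 22 to 25 with limma. The power to detect small interactions with groups of 3 at 24065539 to 28603853 counts per sample was not estimated. A gene that was not called may therefore still have an interaction.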
